A study of Saccharomyces cerevisiae with 12 samples.

Results

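Ribosome biogenesis factors are the nucleolar proteins that fold, modify, cut and escort ribosomal RNA while ribosomal proteins are added to it. The factors followed here are 59 genes listed by open reading frame, and 56 of them had values among the 5994 open reading frames of the arrays. UTP10, RRP5 and HAS1 were not analysed here. The list was made by known function, but it was chosen with earlier results of these data known. It holds NOP, UTP, RRP, NOG, NOC, IMP and related genes, among them subunits of the UtpA, UtpB and Mpp10 complexes, proteins of the small nucleolar ribonucleoproteins (snoRNPs), and factors of the 40S and 60S subunits.

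In yeast, ribosome assembly starts on the growing ribosomal RNA precursor. UtpA binds it first, followed by UtpB, the U3 snoRNP and the Mpp10 complex, and the large particle that forms (the small-subunit processome) releases the precursor of the 40S subunit. A separate series of factors, many of them helicases and GTPases, leads the 60S precursor from the nucleolus to the cytoplasm. Genes for these factors are known to be transcribed together, as part of what is called the ribosome biogenesis regulon, with high expression in rapidly growing cells and low expression under many stresses.

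The study compared a hal4hal5 double mutant of Saccharomyces cerevisiae with its wild type in 3 groups of 4 two-colour arrays. HAL4, named SAT4 in the annotation, and HAL5 encode a pair of similar kinases that activate the uptake of potassium. The groups are mutant and wild type of the BY4741 background in YPD (a rich glucose medium) at pH 4.5, of the W303 background in the same medium at pH 4.5, and of W303 with that medium set to pH 6.0, all harvested in log phase. BY4741 and W303 are laboratory strains. The labels name neither the markers used to make the deletions nor the number of mutant clones. Each array carried mutant and wild-type RNA in different dyes, and the submitters describe the arrays within each group as biological replicates. Values are log2 ratios of mutant over wild type, so 0 means no difference and -1 means that the mutant signal was at 1 part in 2 of the wild type. A ratio gives no level of expression, and levels were not compared between genes.

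Arrays held between 4418 and 5696 values. Both deleted genes mostly had ratios below 0, SAT4 on 9 of 10 arrays (-1.74 to 0.62) and HAL5 on 9 of 11 (-0.78 to 0.42). In BY4741 SAT4 was at -0.73 and -0.96 and HAL5 at -0.78, -0.01, -0.56 and -0.67. In W303 at pH 4.5 the ratios were small, SAT4 at -0.09, -0.18, -0.23 and -0.18 and HAL5 at 0.42, -0.27, -0.21 and -0.32. At pH 6.0 SAT4 ran from -1.74 to 0.62 and HAL5 from -0.15 to 0.19. The ratio of SAT4 was above 0 on the array labelled W303 pH 6.0 replicate 2, and HAL5 on the arrays labelled replicate 1 of W303 at pH 4.5 and at pH 6.0. No array had both above 0. The labels do not say whether their probes lie in the deleted parts, and the sign of every ratio below rests on these genes. Replicate 3 of W303 at pH 6.0 had the fewest values (4418) and measured 52 of the 56 factors.

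The factors as a group were below wild type at pH 4.5 and not at pH 6.0. The median factor was at -0.09, -0.12, -0.28 and -0.01 on the 4 arrays of BY4741, which gives a mean of array medians of -0.13 ± 0.11 (SD, n = 4). In W303 at pH 4.5 the median factor was at -0.64, -0.29, -0.39 and -0.50 (mean -0.46 ± 0.15, SD, n = 4). At pH 6.0 it was at 0.05, 0.36, -0.04 and 0.31 (mean 0.17 ± 0.20, SD, n = 4). The 4 array medians of W303 at pH 4.5 lay below those of both other groups without overlap. The median of all genes lay within 0.035 of 0 on every array. NOP1 lay far above the other factors in W303 at pH 4.5, as the plot of all factors by array shows.

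**Figure D1:**
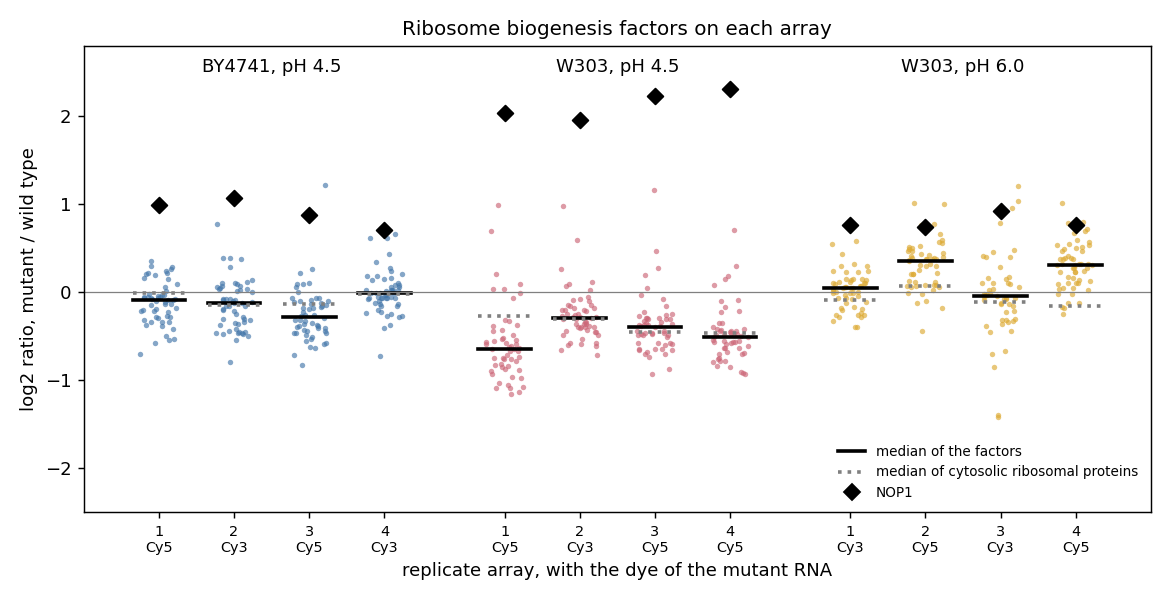
Log2 ratio of mutant over wild type (vertical axis) of each ribosome biogenesis factor on each of the 12 arrays, with the dye of the mutant RNA under each replicate number. Points are genes, diamonds are NOP1, solid lines are the medians of the factors and dotted lines those of the cytosolic ribosomal protein genes; the medians of the factors run from -0.64 to -0.29 in W303 at pH 4.5 and from -0.04 to 0.36 at pH 6.0.

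In BY4741 at pH 4.5, a minority of the factors fell. Of the 56 tested, 13 were called lower and 3 higher in the mutant (limma, p adjusted over all genes after Benjamini and Hochberg, threshold 0.05), that is 23.2% and 5.36%, where 15.4% of all genes were called lower and 15.9% higher. The median ratio of the factors was -0.12 against -0.01 for all genes. The ratio was below 0 on every array for 22 factors (39.3%), against 26% of all genes. The factors called lower were TIF6, NOP14, SOF1, ENP2, NOG1, UTP9, ERB1, NOG2, MAK5, NOP7, DIP2, KRR1 and UTP20. Those called higher were NOP1, NOP12 and NHP2. The counts depended on single arrays. Without replicate 1, 8 factors were called lower, where 10.2% of all genes were. Without replicate 3, 3 were (NOP14, SOF1 and TIF6), and then 6.06% of all genes were called lower. Without replicate 3 or without replicate 4, NOP1 was the factor still called higher. Of the 16 called factors, 4 kept their call whichever array was left out, namely TIF6, NOP14, SOF1 and NOP1.

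In W303 at pH 4.5, most of the factors fell together. Of the 55 tested, 46 were called lower and 4 higher, that is 83.6% and 7.27%, where 33.1% of all genes were called lower and 36.1% higher. The median was -0.48 against 0.03 for all genes. The ratio was below 0 on every array for 46 factors (83.6%), against 34.9% of all genes. The factors called higher were NOP1, NOP12, NSA1 and UTP21, and UTP22, DRS1, NHP2, SPB4 and RRP9 were called in neither direction. All 13 factors called lower in BY4741 were also called lower here, 28.3% of the W303 list. Among all genes tested in both backgrounds, 72.7% of the genes called lower in BY4741 were called lower in W303 at pH 4.5, and these were 34% of the W303 list. Leaving out any 1 array left 45 to 47 factors called lower, where 28.5% to 31.5% of all genes were. Of the 50 called factors, 48 kept their call whichever array was left out, and NOC3 and UTP21 did not.

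With W303 at pH 6.0, NOP1 was the only factor that passed the test. Of the 55 tested, 0 were called lower and 1 higher in the limma test, where 1.44% of all genes were called lower and 1.92% higher. At an unadjusted p below 0.05, 0 factors were lower and 10 higher (0% and 18.2%), against 9.47% and 10% of all genes. The means of 48 factors were above 0 and those of 7 below, with a median of 0.14 against 0.005 for all genes. No factor was below 0 on every array, against 16.4% of all genes, and 14 (25.5%) were above 0 on every array, against 16.1% of all genes. The dye went with this shift. The median factor mean was 0.33 on the arrays with the mutant in Cy5 and 0.004 on those with the mutant in Cy3, where 28 of 56 factors were below 0. The same split gave -0.20 and -0.09 in BY4741, with 45 and 33 of 56 factors below 0. In W303 at pH 4.5 it gave -0.52 and -0.29, with 50 and 48 of 56 below 0, and the Cy3 value there is from 1 array. The median was thus below 0 in both orientations at pH 4.5, though by little for BY4741 in Cy3. The part of the dye in the pH 6.0 values was not tested beyond these values. Without replicate 3, the array that stood apart, 3 of 56 factors were called higher (NOP1, NOG2 and NOG1), where 3.68% of all genes were.

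**Figure D2:**
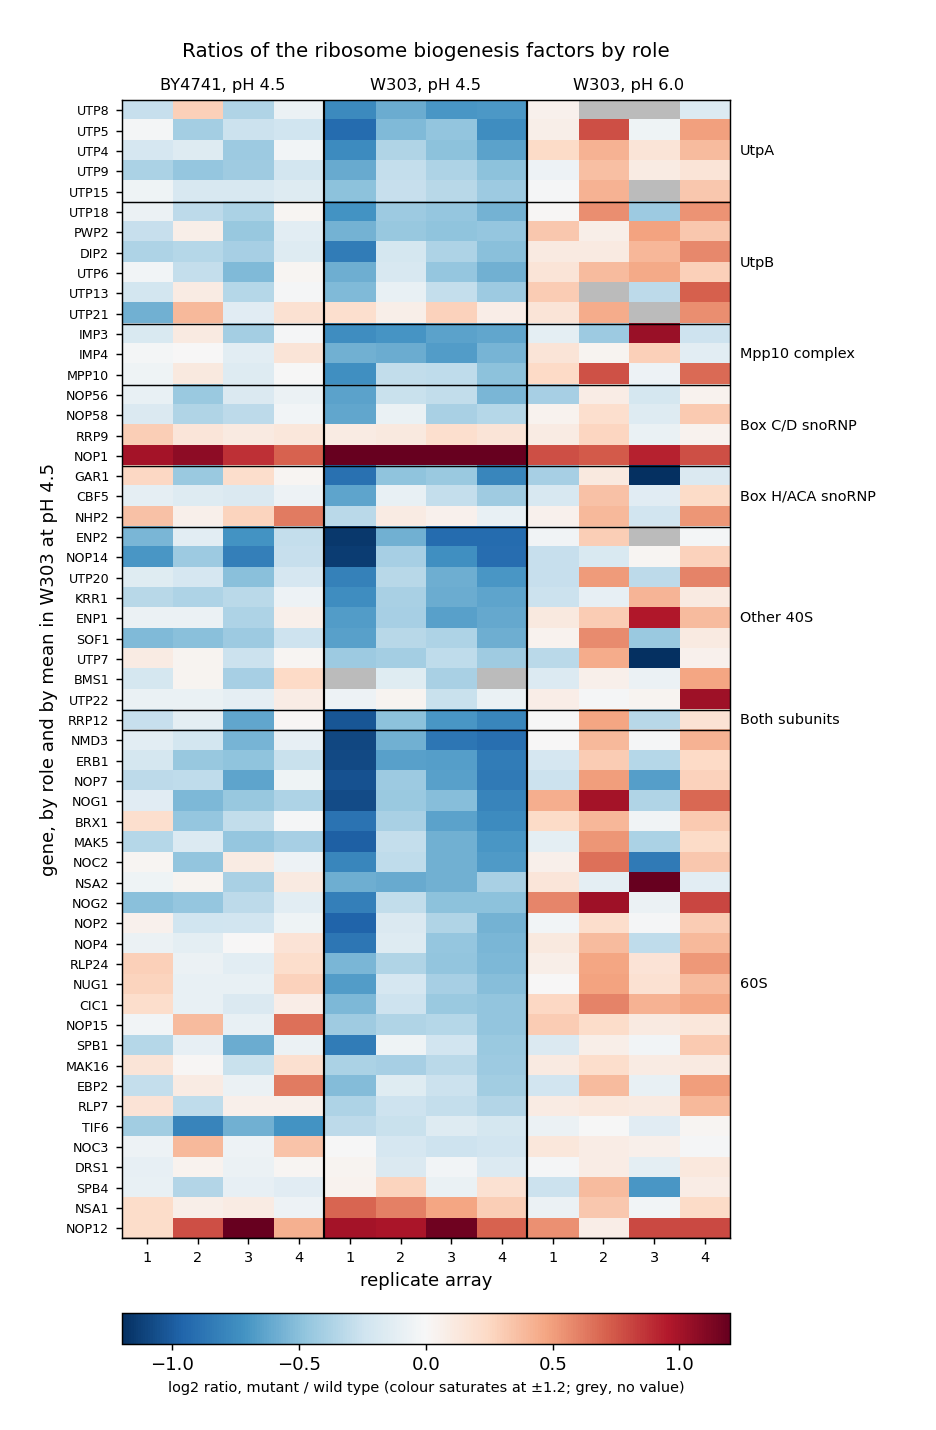
Log2 ratio of mutant over wild type of the 56 measured factors (lines, grouped by role and ordered by their mean in W303 at pH 4.5) on the 12 arrays (columns). Blue is lower and red higher in the mutant, with the colour saturated at 1.2 on either side and grey for no value; the 4 columns of W303 at pH 4.5 are blue for all but a few genes, while NOP1 is red in all 12 columns.

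UtpA is the complex that binds the precursor first. The 5 measured UtpA subunits on the list were all called lower in W303 at pH 4.5, with means from -0.69 to -0.39. Of all genes, 33.1% were called lower there. UTP8 (YGR128C) stood at -0.76, -0.60, -0.70 and -0.69 on the 4 arrays, a mean of -0.69 ± 0.060 (SE, n = 4, limma adjusted p = 1.64e-05). UTP15 (YMR093W), the subunit closest to 0, was at -0.49, -0.28, -0.34 and -0.44 (mean -0.39 ± 0.063, SE, n = 4, limma adjusted p = 5.92e-04). The ranges of these subunits overlapped in part, and all 5 were at -0.28 or below on every array. In BY4741 all 5 means were below 0 (median -0.21), but UTP9 (YHR196W) alone was called, at -0.38, -0.47, -0.43 and -0.22, a call lost without replicate 3 (adjusted p = 0.0538). At pH 6.0 the 4 tested subunits had means from 0.14 to 0.32, and no subunit was called. At an unadjusted p below 0.05 in limma, 1 was higher (25%, against 10% of all genes). UTP8 had values of 0.05 and -0.16 on the 2 arrays that measured it at pH 6.0 and was not tested there.

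UtpB joins the particle after UtpA. Of its 6 subunits, 5 were called lower and 1 higher in W303 at pH 4.5 (83.3% and 16.7%, against 33.1% and 36.1% of all genes). UTP18 (YJL069C) was at -0.71, -0.44, -0.47 and -0.57, a mean of -0.55 ± 0.067 (SE, n = 4, limma adjusted p = 1.15e-04). PWP2 (YCR057C) was at -0.56, -0.45, -0.49 and -0.46, the tightest of the 6. UTP21 (YLR409C) went the other way, at 0.21, 0.07, 0.28 and 0.08 (mean 0.16 ± 0.063, SE, n = 4, limma adjusted p = 0.0481), a call lost without replicate 1, 3 or 4 (adjusted p 0.0925 to 0.192). Its ratio was above 0 on every array while that of its 5 partners was below 0 on every array. In BY4741, where UTP21 ranged from -0.58 to 0.39, DIP2 (YLR129W) was the subunit called, at -0.37, -0.34, -0.40 and -0.15, a call lost without replicate 1 or 3. At pH 6.0 all 6 means lay between 0.17 and 0.38, with no call. Of these subunits, 4 were above 0 on every array that measured them (66.7%, against 16.1% of all genes). At an unadjusted p below 0.05 in limma, 3 were higher (50%, against 10% of all genes). As given above, the shift of the factors at pH 6.0 went with the dye.

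The 3 proteins of the Mpp10 complex, which binds the U3 snoRNP, were close to wild type in BY4741 (means -0.12 to 0.004). All 3 were called lower in W303 at pH 4.5, against 33.1% of all genes. IMP3 (YHR148W) was at -0.74, -0.71, -0.65 and -0.63 in W303 at pH 4.5, a mean of -0.68 ± 0.058 (SE, n = 4, limma adjusted p = 1.54e-05). IMP4 (YNL075W) was at -0.58, -0.59, -0.67 and -0.56 there, and at -0.03, 0.01, -0.12 and 0.16 in BY4741. The arrays of the 2 backgrounds did not overlap for IMP4, and the difference of -0.60 ± 0.10 (SE) passed the test (limma adjusted p = 0.00292). MPP10 (YJR002W), the scaffold, had a mean of -0.46 in W303 at pH 4.5 and of 0.40 at pH 6.0, the latter not called. IMP3 at pH 6.0 was at -0.12, -0.44, 1.04 and -0.25, with replicate 3 far above the other arrays.

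Among the other 9 factors of the 40S subunit, 5 were called lower in BY4741 (55.6%, against 15.4% of all genes). In W303 at pH 4.5, 7 of the 8 tested were called lower (87.5%, against 33.1% of all genes). ENP2 (YGR145W), a processome protein, was at -1.16, -0.58, -0.93 and -0.92 in W303 at pH 4.5, the lowest mean of all factors tested there (-0.90 ± 0.090, SE, n = 4, limma adjusted p = 3.56e-05), so that wild-type signal was 1.86-fold the mutant's. In BY4741 it was at -0.55, -0.12, -0.72 and -0.29 (limma adjusted p = 0.0265, lost without replicate 1, 3 or 4), and the arrays of the 2 backgrounds overlapped. At pH 6.0 it was at -0.04, 0.30 and -0.02 on the 3 arrays that measured it, above all arrays of W303 at pH 4.5.

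NOP14 (YDL148C), which is needed for the early cuts of the 40S precursor, was at -0.70, -0.44, -0.82 and -0.27 in BY4741 (mean -0.56 ± 0.10, SE, n = 4, limma adjusted p = 0.00906). In W303 it was at -1.14, -0.40, -0.74 and -0.91 at pH 4.5 (mean -0.80, limma adjusted p = 2.05e-04) and at -0.28, -0.18, 0.02 and 0.27 at pH 6.0. The 2 groups at pH 4.5 overlapped, and both lay below 0 on every array. SOF1, another processome protein, had nearly the same mean in both backgrounds, -0.43 in BY4741 and -0.48 in W303 at pH 4.5. ENP1 (YBR247C), which stays with the 40S precursor until late steps, was at -0.67, -0.40, -0.65 and -0.61 in W303 at pH 4.5 and at 0.12, 0.31, 0.96 and 0.38 at pH 6.0. It was thus on opposite sides of 0 on every array of the 2 pH groups. BMS1, a GTPase of the processome, had values on 2 arrays of W303 at pH 4.5 (-0.14 and -0.39) and was not tested there. UTP22 (YGR090W) was the member of this group tested and not called in W303 at pH 4.5, at -0.07, 0.03, -0.27 and -0.08. RRP12 (YPL012W), an export factor of both subunits, was at -1.03, -0.49, -0.70 and -0.79 in W303 at pH 4.5 and had a mean of -0.25 in BY4741 (limma adjusted p = 0.126).

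The 25 factors of the 60S subunit divided more widely. In W303 at pH 4.5, 21 were called lower and 2 higher, with a median of -0.44 (84% and 8%, against 33.1% and 36.1% of all genes). In BY4741, 6 were called lower and 1 higher, with a median of -0.08 (24% and 4%, against 15.4% and 15.9% of all genes). NMD3 (YHR170W), the adaptor that carries the 60S precursor out of the nucleus, was at -1.09, -0.57, -0.87 and -0.91 in W303 at pH 4.5 (mean -0.86 ± 0.084, SE, n = 4, limma adjusted p = 3.17e-05). It was at -0.13, -0.22, -0.56 and -0.09 in BY4741, with no overlap between the 2 backgrounds, and the difference of -0.61 ± 0.15 (SE) passed the test (limma adjusted p = 0.016), though not without replicate 4 of either background (0.0514 and 0.053). At pH 6.0 it was at 0.01, 0.39, -0.01 and 0.42, above every array of W303 at pH 4.5.

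ERB1 (YMR049C) and NOP7 (YGR103W) act in 1 complex that is needed to process the 60S precursor. ERB1 was at -1.08, -0.65, -0.66 and -0.84 in W303 at pH 4.5, and NOP7 at -1.05, -0.43, -0.66 and -0.85. Both were lowest on replicate 1, as was the median of all the factors in that group, and fell by like amounts. Both were called lower in BY4741 as well, at means of -0.36 and -0.33, calls that were lost without replicate 3 and, for NOP7, also without replicate 1 or 2. YTM1, the other partner in their complex, which was not on the list and was looked up after these values were seen, had means of -0.10 in BY4741 and -0.64 in W303 at pH 4.5.

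The GTPases NOG1 (YPL093W) and NOG2 (YNR053C), which check maturation of the 60S precursor, had the largest rises from pH 4.5 to pH 6.0. NOG1 was at -1.07, -0.45, -0.51 and -0.80 in W303 at pH 4.5 and at 0.43, 1.00, -0.37 and 0.69 at pH 6.0. NOG2 was at -0.82, -0.30, -0.49 and -0.49 at pH 4.5 and at 0.58, 1.02, -0.07 and 0.80 at pH 6.0. For both genes replicate 3 was the lowest array at pH 6.0 and the only one below 0, and it was still above every array of the pH 4.5 group. NUG1, a related GTPase, had means of 0.09 in BY4741, -0.44 in W303 at pH 4.5 and 0.26 at pH 6.0.

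TIF6 (YPR016C), which keeps the 60S subunit from joining the 40S until maturation is complete, had the reverse order of backgrounds. In BY4741 it was the lowest of the factors, at -0.42, -0.79, -0.57 and -0.72 (mean -0.63 ± 0.080, SE, n = 4, limma adjusted p = 0.00272), so that wild-type signal was 1.54-fold the mutant's. In W303 at pH 4.5 it was at -0.32, -0.27, -0.15 and -0.21 (mean -0.24, limma adjusted p = 0.00688), above every BY4741 array. The difference of 0.39 ± 0.099 (SE) passed the test (limma adjusted p = 0.0186), though not without replicate 3 or 4 of W303 or replicate 4 of BY4741 (0.059 to 0.0604). At pH 6.0 TIF6 was near 0, at -0.07, -0.01, -0.14 and 0.03.

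The 60S factors that did not fall in W303 at pH 4.5 were the helicases DRS1 and SPB4, with means of -0.08 and 0.10, and the RNA-binding protein NOP12 and the assembly factor NSA1, which rose. NOP12 (YOL041C) was at 1.00, 0.98, 1.17 and 0.71 in W303 at pH 4.5 (1.95-fold, mean 0.96 ± 0.079, SE, n = 4, limma adjusted p = 1.22e-05). It was at 0.22, 0.77, 1.22 and 0.43 in BY4741 (1.58-fold, limma adjusted p = 0.0219, lost without replicate 3 or 4) and at 0.55, 0.08, 0.79 and 0.79 at pH 6.0 (limma adjusted p = 0.125). The 3 groups overlapped, and every array was above 0. NSA1 (YGL111W) was at 0.70, 0.60, 0.47 and 0.30 in W303 at pH 4.5 (1.43-fold, mean 0.52 ± 0.076, SE, n = 4, limma adjusted p = 3.30e-04). On the BY4741 arrays it was at 0.22, 0.07, 0.09 and -0.06, below each of those.

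Of the 7 snoRNP proteins on the list, 4 were called lower and 1, NOP1, higher in W303 at pH 4.5, where 33.1% and 36.1% of all genes were. NOP1 and NHP2 were called higher in BY4741, where 15.9% of all genes were. Box C/D particles guide methylation of ribosomal RNA, and NOP1 (YDL014W) is their methyltransferase, the yeast fibrillarin. NOP1 was at 2.04, 1.95, 2.23 and 2.31 in W303 at pH 4.5, a 4.39-fold rise (mean 2.13 ± 0.074, SE, n = 4, limma adjusted p = 1.01e-07). It was at 0.99, 1.08, 0.88 and 0.71 in BY4741 (1.89-fold, mean 0.92 ± 0.078, SE, n = 4, limma adjusted p = 6.83e-04). At pH 6.0 it was at 0.77, 0.74, 0.93 and 0.77 (1.74-fold, mean 0.80 ± 0.094, SE, n = 4, limma adjusted p = 0.0201). All 12 arrays were above 0, and the arrays of W303 at pH 4.5 lay above those of both other groups. The mean was alike in both dye orientations, 2.19 in Cy5 and 1.95 in Cy3 (1 array) for W303 at pH 4.5 and 0.94 and 0.89 for BY4741. Leaving out replicate 1, 2 or 4 ended the call at pH 6.0, with adjusted p of 0.23, 0.0921 and 0.122.

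**Figure D3:**
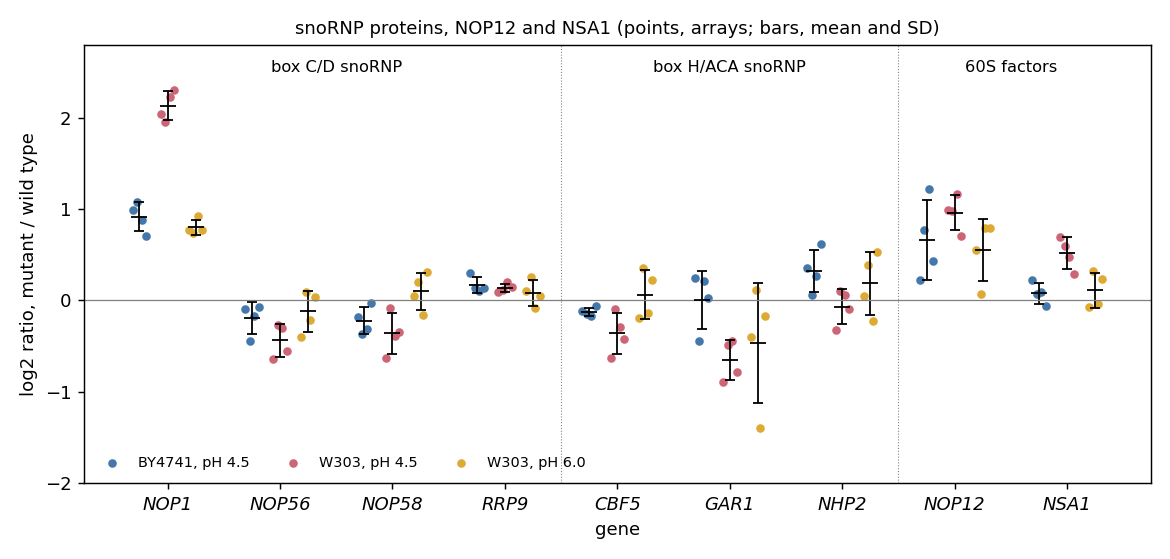
Log2 ratio of mutant over wild type (vertical axis) of the 7 snoRNP proteins on the list and of the 60S factors NOP12 and NSA1 on each array (points), with the mean and SD of each group (bars). NOP1 lies between 1.95 and 2.31 in W303 at pH 4.5 and between 0.71 and 1.08 in the other groups, while its box C/D partners NOP56 and NOP58 lie below 0 on every array of both groups at pH 4.5.

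NOP56 (YLR197W) and NOP58 (YOR310C), the paired scaffold proteins of the same particle, fell in W303 at pH 4.5. NOP56 was at -0.64, -0.26, -0.30 and -0.55 there (mean -0.44 ± 0.078, SE, n = 4, limma adjusted p = 0.00103). NOP58 was at -0.63, -0.08, -0.39 and -0.35 (mean -0.36 ± 0.086, SE, n = 4, limma adjusted p = 0.00528). In BY4741 both were below 0 on every array, with means of -0.19 and -0.22 that did not pass the test. RRP9 (YPR137W), a protein specific to the U3 particle, was slightly above 0 on every array of both pH 4.5 groups, at 0.30, 0.14, 0.11 and 0.14 in BY4741 and 0.10, 0.12, 0.20 and 0.15 in W303, and was called in neither. SNU13, which completes the box C/D core and was also looked up after these values were seen, had a mean of -0.45 in W303 at pH 4.5 and was called lower.

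Box H/ACA particles guide pseudouridylation. Their synthase CBF5 (YLR175W) and the core protein GAR1 (YHR089C) were called lower in W303 at pH 4.5, at means of -0.36 and -0.65. GAR1 was at -0.89, -0.48, -0.44 and -0.78 on those arrays and at 0.24, -0.45, 0.22 and 0.02 in BY4741. NHP2 (YDL208W), their partner in the particle, was at 0.35, 0.06, 0.27 and 0.62 in BY4741 (mean 0.32 ± 0.096, SE, n = 4, limma adjusted p = 0.0434, lost without replicate 1, 3 or 4) and at -0.33, 0.10, 0.06 and -0.09 in W303 at pH 4.5. No snoRNP protein other than NOP1 was called at pH 6.0.

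Genes near NOP1 had smaller ratios. SLX5, TSC13 and YDL012C were taken in the order of the RefSeq annotation. SLX5 had means of -0.04 in BY4741, 0.35 in W303 at pH 4.5 and 0.14 at pH 6.0. TSC13 had -0.03, -0.33 and -0.19, and YDL012C had 0.16, 0.24 and -0.11. YDL016C, which was taken by its locus tag and matched no entry of the RefSeq table, had a mean of 0.22 for BY4741, one of -0.25 for W303 at pH 4.5, and at pH 6.0 a value on 1 array (-0.32). All 4 were called in W303 at pH 4.5 (limma), SLX5 and YDL012C higher and TSC13 and YDL016C lower. In that group most genes were called, 36.1% of all genes higher and 33.1% lower. The call of YDL012C was lost without replicate 1, 3 or 4 (limma adjusted p 0.131 to 0.178) and that of YDL016C without replicate 4 (0.0708). The means of all 4 lay below those of NOP1 in each group. From the highest ratio down, NOP1 ranked 99th of 5461 genes in BY4741, 39th of 5501 in W303 at pH 4.5 and 101st of 4856 at pH 6.0.

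The test of the difference between pH 6.0 and pH 4.5 in W303 called 35 of 54 factors higher at pH 6.0 and 2 lower (64.8% and 3.7%), where 10.7% of all genes were called higher and 13.2% lower. The median difference was 0.63 against -0.02 for all genes. NOG1 (1.15 ± 0.24, SE, limma adjusted p = 0.00527), NOG2 (1.11 ± 0.20, SE, limma adjusted p = 0.00224), NMD3 (1.06 ± 0.15, SE, limma adjusted p = 4.93e-04) and ENP1 (1.02 ± 0.16, SE, limma adjusted p = 9.93e-04) had the largest rises. The factors with a lower difference were NOP1 (-1.33 ± 0.11, SE) and NSA1 (-0.41 ± 0.12, SE, limma adjusted p = 0.0305). The dye went with the size of the difference. On the arrays with the mutant in Cy5 the median difference was 0.77 and 53 of 56 factors were above 0. On those with the mutant in Cy3, only 1 of them from W303 at pH 4.5, it was 0.27 with 42 of 56 above 0. Without replicate 1 of W303 at pH 4.5, 26 factors were called higher, and without replicate 3 at pH 6.0, 40 were. These 2 counts were not set against the shares of all genes in the same fits. Of the 37 calls, 27 held whichever array was left out. NSA1's call was lost without replicate 1 or 3 at pH 6.0 and without replicate 1, 2 or 3 at pH 4.5, where 1 factor was left with a lower difference.

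**Figure D4:**
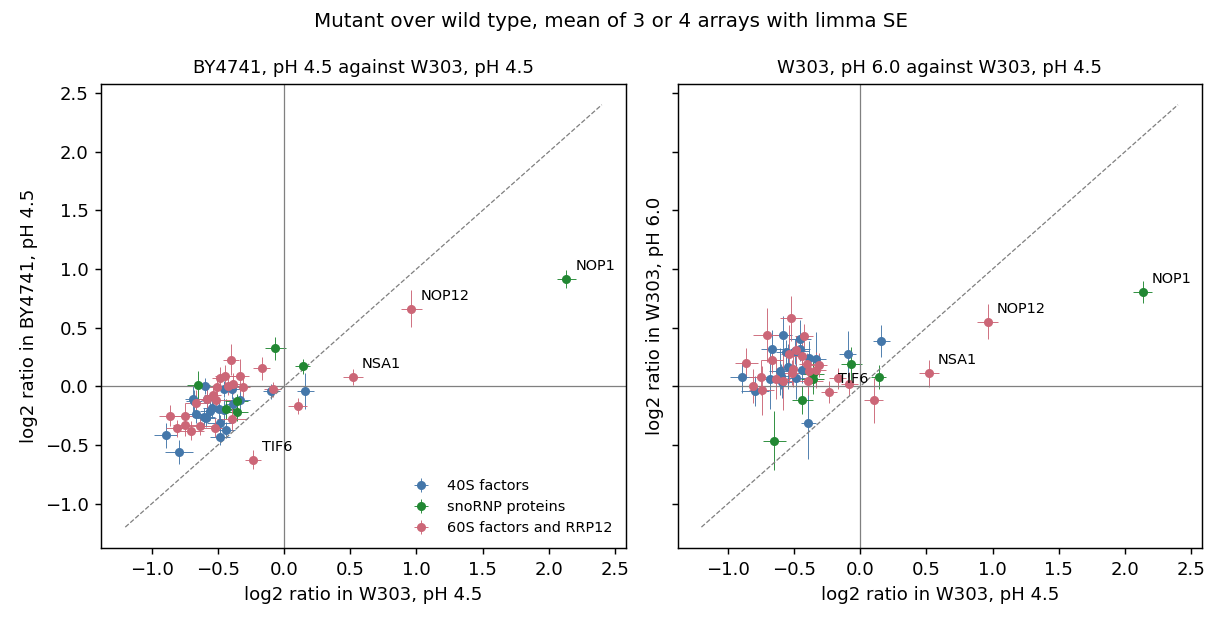
Mean log2 ratio of each factor in W303 at pH 4.5 (horizontal axes) against that in BY4741 at pH 4.5 (left) and in W303 at pH 6.0 (right), with limma standard errors as bars and the dashed line marking equal ratios. Of the factors, 49 of 55 lie above the line on the left and 49 of 54 on the right, and NOP1 is the point farthest to the right in both panels.

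Between the backgrounds at pH 4.5, 8 of 54 factors were called lower in W303 than in BY4741 and 3 higher (14.8% and 5.56%), where 9.55% of all genes were called lower and 10.9% higher. The difference was below 0 for 48 of the 54 and above 0 for 6, with a median of -0.34 against 0.02 for all genes. The 8 were the 60S factors NOP15, NMD3, RLP24, NUG1, BRX1, CIC1 and MAK16, and IMP4 of the Mpp10 complex. NOP15 (YNL110C) was at -0.03, 0.38, -0.09 and 0.66 in BY4741 and at -0.43, -0.36, -0.35 and -0.47 in W303, a difference of -0.63 ± 0.15 (SE, limma adjusted p = 0.0128). The higher ones were NOP1 (1.22 ± 0.11, SE, limma adjusted p = 3.20e-05), NSA1 (0.44 ± 0.12, SE) and TIF6. The count of 8 changed with the settings. With only the 2 groups compared in the fit, 29 factors were called lower (17.9% of all genes), and with array weights 36 were (22.7% of all genes), and both sets held the 8. Equal array scale gave 3 (5.28% of all genes) and the Cy5 arrays alone gave 14 (8.74% of all genes). Leaving out replicate 4 of W303 or of BY4741 gave 3 (3.8% and 4.11% of all genes). In the settings that gave 3, the share of factors was near that of all genes. Leaving out replicate 1 of BY4741 gave 4 (5.57% of all genes). Without replicate 1 or 3 of W303 the count was 5 (6.99% and 4.54% of all genes). The highest count was 12, without replicate 2 of W303 (6.77% of all genes). IMP4, NOP1, NOP15 and RLP24 kept their call whichever array was left out. Both differences use the W303 arrays at pH 4.5.

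Across factors, which are not independent replicates and share arrays, the ratios in BY4741 and in W303 at pH 4.5 correlated with Pearson's r of 0.76 over 55 factors (0.634 without NOP1). For W303 at pH 4.5 and at pH 6.0 r was 0.412 over 54 factors (0.172 without NOP1). For all genes the same correlations were 0.678 and 0.603, and the difference between factors and other genes was not tested.

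Among other genes of the pathway, most fell in W303 at pH 4.5. Of 81 further biogenesis factors in the table, 68 were called lower and 2 higher there (84% and 2.47%, against 33.1% and 36.1% of all genes, median -0.44). In BY4741, 13 of 79 were called lower and 1 higher (16.5% and 1.27%, against 15.4% and 15.9% of all genes), so the share called lower was near that of all genes. At pH 6.0, 0 were called lower and 1 higher of 78 (1.28%, against 1.92% of all genes). At an unadjusted p below 0.05 in limma, 0 were lower and 6 higher (7.69%, against 10% of all genes). The lowest in W303 at pH 4.5 were SDA1 (-0.96) and RIX1 (-0.83), both 60S factors, and the helicase gene DBP7 was the highest (0.92). The 1 called at pH 6.0 was PNO1, a 40S factor (0.58 ± 0.10, SE, n = 4, limma adjusted p = 0.0498, lost without replicate 1, 2 or 4). Of the 12 genes of the nuclear exosome and its partners, which trim the precursors, 9 were called lower in W303 at pH 4.5 (75%) and 6 in BY4741 (50%), led by the helicase gene MTR4 at -0.96 and -0.49 (the latter lost without replicate 3). Of 7 genes of RNA polymerase I, which transcribes the precursor, 5 were called lower and 1 higher in W303 at pH 4.5 (71.4% and 14.3%). In BY4741, 1 was lower and 1 higher (14.3% each), near the shares of all genes. The cytosolic ribosomal protein genes, the other large gene group of the ribosome, had a median of -0.36 in W303 at pH 4.5 and of -0.08 in each other group. In W303 at pH 4.5, 107 of 130 were called lower and 1 higher (82.3% and 0.769%, against 33.1% and 36.1% of all genes). In BY4741, 23 of 128 were called lower and 4 higher (18% and 3.12%, against 15.4% and 15.9% of all genes). At pH 6.0, 0 of 130 were called in either direction, where 1.44% of all genes were called lower and 1.92% higher. Of their means, 106 (81.5%) were below 0, against 49.2% of all genes. Of the biogenesis factors, 48 of 55 (87.3%) had means above 0, against 50.8% of all genes. That shift of the factors went with the dye, and in Cy3 28 of 56 were below 0.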

How the data were processed

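The deposited values are log ratios of the 2 dyes, 1 for each of 5994 open reading frames on 12 arrays, read here as log2. The sources used here do not give the log base, the authors' normalisation or their filter. The range of -7.15 to 5.55 led to base 2, and with the natural logarithm all folds would be larger. Signal over background is unknown, and 4 arrays a group limit the precision. Per the labels, the mutant was in Cy5 on 7 arrays (3 of 4 in W303 at pH 4.5). Values were taken as Cy5 over Cy3 and turned where the mutant was in Cy3. This was done since 10 of 11 opposite-dye pairs within groups correlated negatively as deposited and the deleted genes were then mostly lower. No same-dye pair was below 0 (lowest r 0.228).

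Each group was fitted with limma 3.58.1 (R 4.3.3), 1 mean per gene with at least 3 of 4 values, in place of the one-class SAM of the design text. Differences are contrasts in 1 fit of all 12 arrays. Tests are two-sided, called where p, adjusted after Benjamini and Hochberg over all genes, was below 0.05, and the fit was tested on simulated data. Titles number the replicates, while every description calls its array the same replicate, so p-values measure the spread between these arrays. All 59 symbols matched RefSeq locus tags, as did 5457 of 5994 open reading frames. Named are the extremes of each role, members against the majority, untested members, up to 2 called genes on either side of the other lists, the deleted genes and the neighbours of NOP1. YTM1, SNU13 and FHL1 fall outside that rule. Members and lists were chosen with earlier results of these data known. Promoter sequences were not used here. Alternatives were array scale, 4 of 4 values, dye terms, array weights, robust moderation, fewer arrays and the replicate block.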

Additional observations from a re-analysis of the deposited data

Results flagged for a closer look

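A single array lay apart from the other 3 of its group for 8 of the 162 combinations of factor and group with 4 values, and chance gives about 1 in 20. In BY4741 these were UTP20 on replicate 3 (-0.50, others -0.20 to -0.15), UTP22 on replicate 4 (0.089, others -0.11 to -0.08) and KRR1 on replicate 4 (-0.06, others -0.37 to -0.33). In W303 at pH 4.5 it was NSA2 on replicate 4 (-0.39, others -0.60 to -0.58). In W303 at pH 6.0 they were NOP1 on replicate 3 (0.93, others 0.74 to 0.77), UTP22 on replicate 4 (1.01, others -0.02 to 0.08), MAK16 on replicate 2 (0.21, others 0.10 to 0.11) and RLP7 on replicate 4 (0.39, others 0.10 to 0.13).

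The effect of the mutation differed between the backgrounds at pH 4.5, by the limma test of the difference itself (log2, W303 minus BY4741), for NOP15 (-0.63), NMD3 (-0.61), IMP4 (-0.60), RLP24 (-0.56), NUG1 (-0.54), BRX1 (-0.53), CIC1 (-0.43) and MAK16 (-0.41) below 0, and for NOP1 (1.22), NSA1 (0.44) and TIF6 (0.39) above 0.

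It differed between pH 6.0 and pH 4.5 in W303 (log2, pH 6.0 minus pH 4.5) for 37 factors. Below 0 were NOP1 (-1.33) and NSA1 (-0.41). Above 0 by more than 0.8 were NOG1 (1.15), NOG2 (1.11), NMD3 (1.06), ENP1 (1.02), UTP5 (0.99), ENP2 (0.97), BRX1 (0.90), MPP10 (0.86), CIC1 (0.86), UTP4 (0.85), RRP12 (0.83), NSA2 (0.81) and ERB1 (0.81). Above 0 by 0.8 or less were RLP24 (0.79), PWP2 (0.79), DIP2 (0.78), UTP6 (0.77), NOP14 (0.75), UTP20 (0.73), UTP18 (0.72), NOP7 (0.71), NUG1 (0.71), MAK5 (0.70), IMP4 (0.69), NOP4 (0.65), NOP2 (0.63), UTP15 (0.63), KRR1 (0.63), NOP15 (0.59), UTP9 (0.58), SOF1 (0.55), MAK16 (0.51), RLP7 (0.50), NOP58 (0.46) and CBF5 (0.42). The size of these differences went with the dye. Over all factors the median difference was 0.77 with the mutant in Cy5 and 0.27 with it in Cy3. The split was not given gene by gene.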

How the results depend on the processing

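For 20 results, 228 alternative values were computed: 196 kept their direction and their side of the threshold or stayed within 1.5 times the count or 1 SD, 29 moved, 3 lost the threshold and 0 changed sign. Leaving out single arrays gave 3 to 9 factors lower and 1 to 3 higher in BY4741, and 0 to 3 higher in W303 at pH 6.0. For W303 minus BY4741 it gave 3 to 12 lower (3.8% to 7.21% of all genes) and 1 to 3 higher. For pH 6.0 minus pH 4.5 it gave 1 to 2 lower. NOP1 at pH 6.0 lost its call without replicate 1 (0.81), 2 (0.82) or 4 (0.81). Array weights gave 3 factors higher at pH 6.0 (5.56% of all genes) and 36 lower for W303 minus BY4741 (22.7% of all genes). Equal array scale gave 3 lower for that difference (5.28% of all genes), and the fit of only the 2 groups compared gave 29 (17.9% of all genes). The arrays with the mutant in Cy5 alone, an alternative chosen after seeing the data, gave 14 (8.74% of all genes). Equal array scale, the fit of 2 groups and the Cy5 arrays each left 1 factor lower for pH 6.0 minus pH 4.5. A dye term gave 19 lower in BY4741, where the share of all genes called lower also rose, from 15.4% to 22.5%. It gave 10 lower for W303 minus BY4741 (10.2% of all genes). The cause of these changes was not tested.

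With the replicate number as a replicate block, 9 factors were lower for W303 minus BY4741 (6.75% of all genes). For pH 6.0 minus pH 4.5, 34 were higher and 1 lower. Same-numbered arrays deviated together in 4 of 12 pairs (r above 0.1, range -0.397 to 0.209), so the numbers were not taken to pair the samples. Unknown signal over background limits what can be said of factors missing on some arrays.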

Other observations

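Among 7 known regulators of the ribosome biogenesis genes, single genes passed the test while the counts stayed near those of all genes. DOT6, a repressor of these genes, was at 1.05, 0.95, 1.03 and 1.01 in W303 at pH 4.5, a 2.01-fold rise (mean 1.01 ± 0.057, SE, n = 4, limma adjusted p = 1.48e-06). Its mean was 0.40 in BY4741 (limma adjusted p = 0.0156, lost without replicate 3) and 0.36 at pH 6.0 (limma adjusted p = 0.183), and it was above 0 on all 12 arrays. TOD6, the paralog of DOT6 and also a repressor, went the other way in W303 at pH 4.5, at -0.98, -0.85, -0.50 and -0.93 (mean -0.81, limma adjusted p = 4.48e-05). At pH 6.0 it spread from -1.15 to 1.83.

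SCH9, which encodes a kinase that promotes ribosome biogenesis, fell at pH 4.5 in both backgrounds. It was at -0.76, -0.66, -0.54 and -0.63 in BY4741 (mean -0.65, limma adjusted p = 0.00116) and at -0.55, -0.75, -0.24 and -0.41 in W303 (mean -0.49, limma adjusted p = 9.08e-04), with a mean of -0.04 at pH 6.0. STB3, another repressor, rose in W303 at pH 4.5 (mean 0.32, limma adjusted p = 0.00603). FHL1, which is not one of these repressors, was also called higher there. It kept that call in 2 of the 4 fits that left out 1 array. Of the 7 regulators, 2 were called lower and 3 higher in W303 at pH 4.5 (28.6% and 42.9%, against 33.1% and 36.1% of all genes). In BY4741, 1 was called in each direction (14.3%, against 15.4% and 15.9% of all genes). At pH 6.0, 0 were lower and 0 higher in limma, with 0 lower and 1 higher at an unadjusted p below 0.05 (14.3%, against 10% of all genes).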
